A study of Mus musculus with 15 samples.

Results

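Expression of 8 glucocorticoid response genes was examined in gonadal white adipose tissue of mice lacking Sfrp5, a secreted inhibitor of Wnt signalling that adipocytes release, and of wild-type mice. The genes were the receptor gene Nr3c1, the activating enzyme gene Hsd11b1, the receptor targets Fkbp5, Tsc22d3, Sgk1 and Zbtb16, and the metallothionein genes Mt1 and Mt2. They were chosen by name, with earlier results of these data known, and make up 8 of the 19938 genes named on the array. Each was read from a probe set annotated to that symbol alone, and each had 1 such probe set. The 8 Sfrp5 KO mice carried the Q27Stop mutation, and the other 7 mice were wild type. All 15 were male C57BL6/J mice of 12 weeks on a high-fat diet since 4 weeks of age, 8 weeks in all. Knockout and diet were therefore seen together, with no mouse on another diet here. Every mouse gave 1 Affymetrix array, and all levels below are log2 values after RMA, the robust multi-array average, which normalises arrays and summarises the probes of a set. A log2 difference of 1 is a doubling.

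Glucocorticoids enter cells and bind the glucocorticoid receptor, which chaperones of the Hsp90 system hold ready in the cytoplasm. The bound receptor moves to the nucleus and raises or lowers the transcription of its target genes. In fat, the hormone shapes adipocyte differentiation, lipid storage and lipolysis, and local enzymes set how much active hormone the cells see. Several targets answer other signals as well: metallothioneins, small cysteine-rich proteins that bind zinc and copper, are also induced by metals through the factor Mtf1.

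Sequences upstream of the metallothionein genes and of Sgk1 are shown because these genes are the textbook carriers of metal response and glucocorticoid response elements. RefSeq promoter sequences of GRCm38.p6 were taken for 6 of the 8 genes, as 13 windows of the 250 bases before a transcription start. Zbtb16 had no entry, and Nr3c1 was left out by choice, so the counts below do not cover it. Both strands were searched for the core of the metal response element, spelled TGCACNC or TGCGCNC, and for the palindromic glucocorticoid response element, spelled GNACA, any 3 bases, then TGTNC. Capitals mark the matches, and no match overlapped another. The Mt2 window, chr8:94172368-94172617 on the plus strand, held 3 metal core matches, which began 223, 128 and 50 bases before the start.
Mt2: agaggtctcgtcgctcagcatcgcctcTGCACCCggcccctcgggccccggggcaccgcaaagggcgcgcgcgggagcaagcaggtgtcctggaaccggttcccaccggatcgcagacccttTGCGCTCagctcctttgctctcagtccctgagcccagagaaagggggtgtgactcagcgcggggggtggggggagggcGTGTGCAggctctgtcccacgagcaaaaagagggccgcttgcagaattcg

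The Mt1 window held 1 metal core match 23 bases before the start, at chr8:94179055-94179084 with its flanks, and 1 glucocorticoid element match 94 bases before it, at chr8:94178987-94179016. The window of 1 of the Sgk1 starts held a glucocorticoid element match 188 bases upstream, at chr10:21993694-21993723. All 3 stretches are given 5′ to 3′ on the plus strand. They lie within the annotated spans of their genes, whose earliest starts are further upstream.
Mt1 metal core: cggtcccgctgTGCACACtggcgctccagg
Mt1 glucocorticoid element: cactatagGGACATGATGTTCcacacgtca
Sgk1 glucocorticoid element: tgcggaaaGAACAGAATGTTCtcggagatt

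A metal core stood in 3 of the 13 windows and in 21.4% of the 32851 RefSeq windows of this length. Those 3 were the windows of Mt2, Mt1 and Hsd11b1, the last with a match 237 bases before its start. The glucocorticoid element stood in 2 of the 13 and in 0.387% of all, or 127 windows. The windows of the other Sgk1 starts held neither motif. A match says only that these letters are present. Mt2 and Mt1 lie side by side on chromosome 8, with 5315 bases between them.

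The labelled tissue was checked against adipocyte markers. Adipoq, the adipocyte hormone adiponectin, had a median of 12.71 in Sfrp5 KO mice and 12.57 in wild-type mice. Sfrp5 itself averaged 6.69 ± 0.40 in Sfrp5 KO (SD, n = 8) and 7.92 ± 0.24 in wild type (SD, n = 7), with no overlap, a difference of -1.23 (limma, adjusted p = 0.02; exact permutation p = 0.000155). Leaving out single mice moved that limma adjusted p between 0.00413 and 0.067. Across the array, 12 of 35557 probe sets passed the adjusted threshold of 0.05, a count that ran from 0 to 133 as single mice were left out. Some arrays stood apart in markers of other cells. The mean of 8 epididymis markers was 11.23 in Sfrp5 KO mouse 2 and 7.99 in wild-type mouse 4, against 5.94 to 7.38 in the other 13 arrays. The markers behind these means differed. In wild type Adam7 and Spink8 reached 12.52 and 12.96, but Gpx5, Lcn5 and Cst11 at most 5.33, 6.33 and 7.02. In Sfrp5 KO Gpx5, Cst11 and Adam7 reached 12.54, 12.44 and 12.73, and Spink8 8.45. The mean of 11 macrophage markers was highest in Sfrp5 KO mouse 8 (9.82) and wild-type mouse 2 (9.27), against 8.49 to 9.20 in the others. Correlations that these arrays moved across the threshold are given with and without them. All 9 mesothelial markers had a higher mean in Sfrp5 KO, with a median difference of 0.41, and 7 of 8 endothelial markers a lower one, with a median of -0.11. Of all named genes, 44.8% were higher. None of these markers passed the adjusted test (limma). At an unadjusted p under 0.05, 4 of the 9 mesothelial markers were higher, where 2.3% of named genes were. Array position in the sample descriptions runs with genotype, so effects of that order cannot be told apart from those of genotype. The descriptions also carry a number of unstated meaning, which falls within the wild-type range (640 to 660) in Sfrp5 KO mice 7 and 8 and below it in Sfrp5 KO mice 1 to 6. For the 8 genes, differences are therefore also given with Sfrp5 KO mice 7 and 8 alone and without them.

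The question of the comparison was whether loss of Sfrp5 on a high-fat diet moved the glucocorticoid response of the fat depot. None of the 8 genes differed between genotypes at the threshold adjusted over all 35557 probe sets (limma), against a background of 0.0337% (0.0281% for higher and 0.00562% for lower values in Sfrp5 KO). At an unadjusted p under 0.05 the count was 1 of 8, namely Sgk1, lower in Sfrp5 KO. That share stands beside a background of 9.97% of all probe sets in either direction and 5.03% lower. Of named genes alone, 4.39% were lower and 2.3% higher. No gene had ranges free of overlap, as 0.217% of probe sets had. The means of 4 genes were higher and those of 4 were lower in Sfrp5 KO, with a median difference of 0.01, against -0.01 over all named genes, of which 44.8% were higher.

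Nr3c1, which encodes the glucocorticoid receptor (probe set 10458569, chr18:39410545-39519421), was at the same level in both genotypes within the spread between mice. Its lowest, median and highest values were 9.52, 9.74 and 9.93 in Sfrp5 KO mice, against 9.49, 9.74 and 9.91 in wild-type mice. The ranges almost coincided. The difference was -0.03 (SE 0.08, 95% interval -0.20 to 0.14, limma adjusted p = 0.944). It was -0.22 with Sfrp5 KO mice 7 and 8 alone and 0.04 without them. The within-genotype SD of 0.153 lay at the 43.2nd percentile of named genes and the 59.5th of the 1000 genes nearest in level.

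Hsd11b1 encodes the reductase that regenerates active corticosterone from its inert keto form inside the cell (probe set 10361234, chr1:193221640-193264045). Sfrp5 KO mice had a lowest, median and highest value of 8.27, 8.41 and 8.76, against 8.30, 8.68 and 8.91 in wild-type mice. The groups overlapped over most of their range, and 7 of 8 Sfrp5 KO mice lay below the wild-type mean. Wild-type mouse 4, at 8.30, was as low as the lower Sfrp5 KO mice. The difference of -0.18 (SE 0.10, 95% interval -0.39 to 0.02) did not pass the test (limma, adjusted p = 0.566). It was -0.23 with Sfrp5 KO mice 7 and 8 alone and -0.17 without them.

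Among the receptor targets, Sgk1 gave the lowest p. It encodes the serum and glucocorticoid regulated kinase, which acts on ion channels and on the Foxo factors (probe set 10362073, chr10:21882184-21999903). Its values ran 6.84, 7.01 and 7.28 (lowest, median, highest) in Sfrp5 KO mice, against 6.87, 7.35 and 7.57 in wild-type mice. All 8 Sfrp5 KO mice lay below the wild-type mean of 7.31, and the overlap came largely from wild-type mouse 3, at 6.87, with the other wild-type mice at 7.21 to 7.57. Sgk1 averaged 7.04 ± 0.16 in Sfrp5 KO (SD, n = 8) and 7.31 ± 0.22 in wild type (SD, n = 7). The difference was -0.27 (SE 0.10, 95% interval -0.47 to -0.06), a fold of 0.831. It did not pass the threshold adjusted over the array (limma, adjusted p = 0.353). With Sfrp5 KO mice 7 and 8 alone it was -0.20, and without them -0.29. In bulk tissue, fewer cells of a type and less RNA per cell cannot be told apart, for this gene and for those that follow.

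Fkbp5, an Hsp90 co-chaperone that lowers the receptor's affinity for hormone and is itself a sensitive receptor target, was the most variable of the non-metallothionein targets together with Zbtb16 (probe set 10449452, chr17:28398753-28486149). Sfrp5 KO mice had 7.70, 8.13 and 8.83 as lowest, median and highest value, against 7.78, 7.98 and 8.67 in wild-type mice. A single mouse of each genotype headed the range: Sfrp5 KO mouse 2 at 8.83 and wild-type mouse 4 at 8.67, which are the arrays highest in epididymis markers. The other 6 wild-type mice lay between 7.78 and 8.12. The groups overlapped almost fully, with a difference of 0.13 (SE 0.16, 95% interval -0.21 to 0.47, limma adjusted p = 0.855). With Sfrp5 KO mice 7 and 8 alone it was 0.04, and without them 0.16.

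Tsc22d3 encodes the glucocorticoid-induced leucine zipper protein, a mediator of the hormone's anti-inflammatory action (probe set 10606989, chrX:140539528-140600522). Its lowest, median and highest values were 8.57, 8.85 and 8.98 in Sfrp5 KO mice, against 8.45, 8.82 and 8.92 in wild-type mice. Most mice sat close together, with Sfrp5 KO mice 2 (8.60) and 4 (8.57) and wild-type mouse 7 (8.45) below the rest. The difference was 0.05 (SE 0.08, 95% interval -0.12 to 0.21, limma adjusted p = 0.895), with 0.08 for Sfrp5 KO mice 7 and 8 alone and 0.04 without them.

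Zbtb16, a zinc finger transcription factor induced by the hormone in several tissues, spanned nearly the same range in both genotypes (probe set 10593225, chr9:48651797-48836225). The values were 9.27, 9.57 and 10.24 in Sfrp5 KO mice, against 9.16, 9.73 and 10.13 in wild-type mice. Within each genotype the highest mouse had about 1.96-fold (Sfrp5 KO) and 1.95-fold (wild type) the level of the lowest, while the genotype means differed by -0.12 (SE 0.16, 95% interval -0.46 to 0.22, limma adjusted p = 0.872). That difference depended on Sfrp5 KO mice 7 (9.34) and 8 (9.27): it was -0.45 with them alone and -0.01 without them.

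Mt1 (probe set 10574027, chr8:94178883-94180327) had a lowest, median and highest value of 9.86, 10.34 and 10.76 in Sfrp5 KO mice, against 10.07, 10.33 and 10.58 in wild-type mice. Mt2 (probe set 10574023, chr8:94172618-94173567) had 9.69, 10.34 and 10.78 in Sfrp5 KO mice, against 9.91, 10.07 and 10.87 in wild-type mice. For both genes the wild-type range lay inside or nearly inside that of Sfrp5 KO. Wild-type mouse 2 alone held the top Mt2 value of 10.87, while the next wild-type mouse reached 10.35. The differences were 0.08 for Mt1 (SE 0.12, 95% interval -0.18 to 0.34, limma adjusted p = 0.883) and 0.10 for Mt2 (SE 0.18, 95% interval -0.28 to 0.48, limma adjusted p = 0.904). With Sfrp5 KO mice 7 and 8 alone they were 0.18 and 0.44, and without those mice 0.05 and -0.01.

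**Figure D1:**
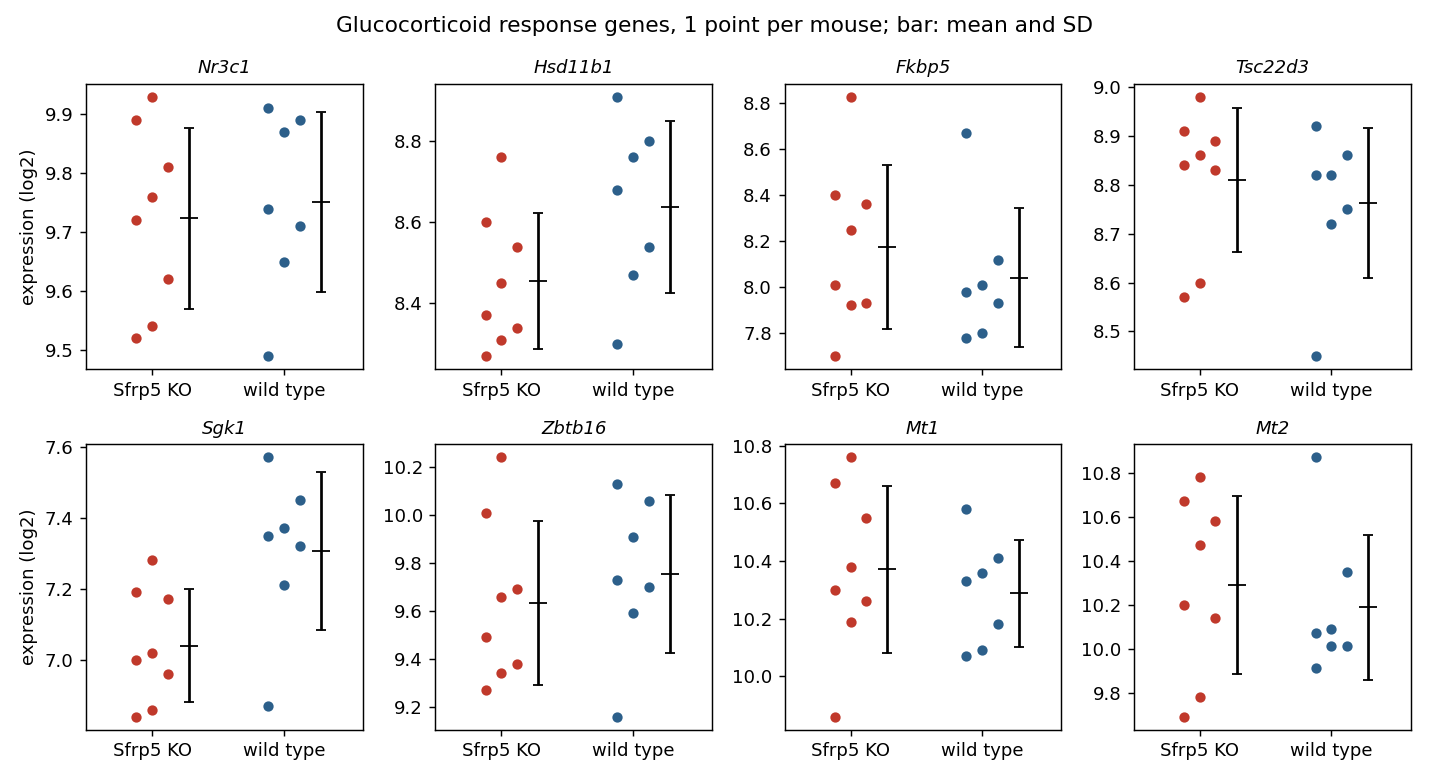
Log2 expression of the 8 genes in each mouse, with the mean and SD of each genotype as a bar (8 Sfrp5 KO mice in red, 7 wild-type mice in blue; each panel has its own vertical scale). The genotypes overlap in every panel; in Sgk1 the Sfrp5 KO mice lie at 6.84 to 7.28, with wild-type mouse 3 (6.87) the only wild-type mouse as low as most of them.

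**Figure D2:**
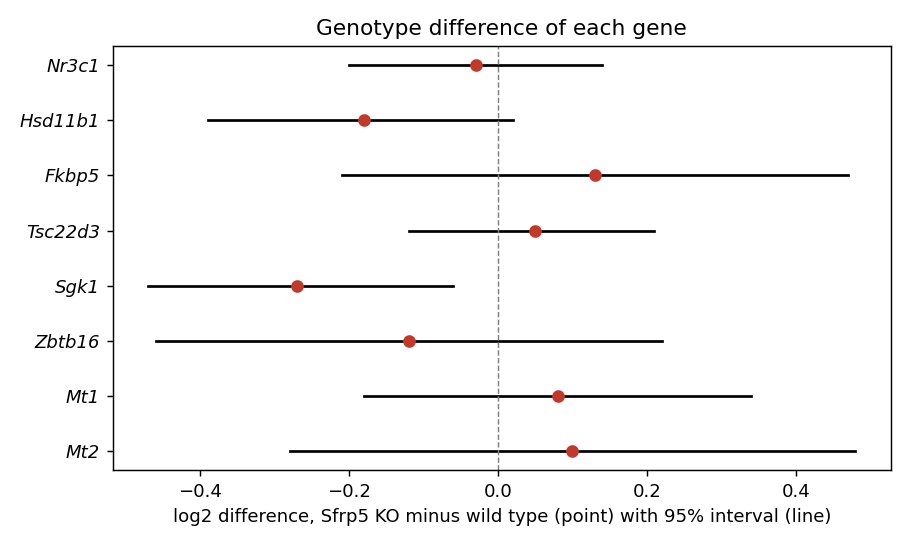
Log2 difference, Sfrp5 KO minus wild type, of each gene (point) with its 95% interval from limma (line). The interval of Sgk1 (-0.47 to -0.06) leaves out 0 before adjustment; those of the other 7 genes span 0, and the widest is that of Mt2 (-0.28 to 0.48).

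The genes differed in how much they varied from mouse to mouse. The within-genotype SD stood at the 84.0th percentile of named genes for Mt1, the 92.6th for Fkbp5 and for Zbtb16, and the 94.3rd for Mt2. Among the 1000 genes nearest in level the same 4 genes stood between the 91.4th (Mt1) and the 97.5th percentile (Mt2). The other 4 genes lay nearer the middle, at 40.4 (Tsc22d3) to 67.0 (Sgk1) among named genes and 46.5 (Tsc22d3) to 72.2 (Hsd11b1) among their level neighbours. The median SD of named genes was 0.163.

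No mouse was high or low throughout. Sfrp5 KO mouse 2 was among the top 3 of 15 for Fkbp5, Mt1 and Mt2 and among the bottom 3 for Tsc22d3 and Sgk1. Sfrp5 KO mouse 5 was among the bottom 3 for Hsd11b1, Fkbp5, Mt1 and Mt2, yet had the highest Tsc22d3 value, 8.98. Wild-type mouse 2 was among the top 3 for Hsd11b1, Sgk1 and Mt2 and lowest for Zbtb16, at 9.16. Wild-type mouse 4 was among the top 3 for Fkbp5, Sgk1 and Mt1 and lowest of all for Nr3c1, at 9.49.

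**Figure D3:**
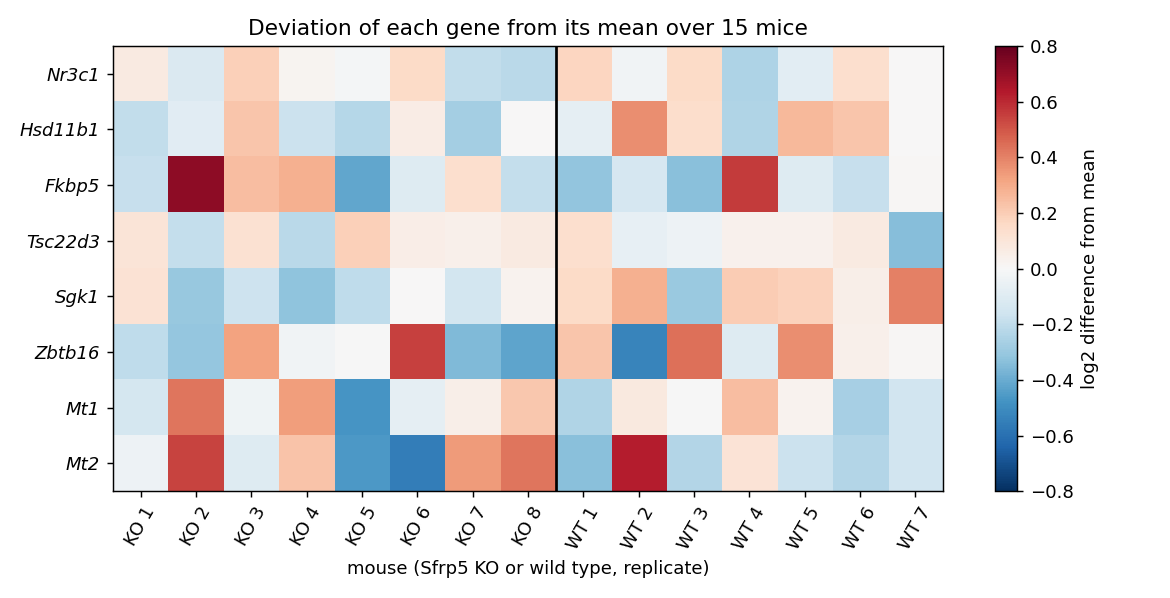
Deviation of each gene from its mean over the 15 mice, in log2 units (rows, genes; columns, 8 Sfrp5 KO mice left of the line and 7 wild-type mice right of it; red above the mean, blue below). Colours change sign down most columns; Sfrp5 KO mouse 2 combines high Fkbp5 (8.83), Mt1 (10.76) and Mt2 (10.78) with low Sgk1 (6.86).

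The second question was whether the genes moved together across mice. Of the 28 pairs among the 8 genes, 9 had a positive and 19 a negative Pearson r over the 15 mice, with a median r of -0.09. By permutation of the mice with Benjamini-Hochberg adjustment over the 28 pairs, 3 pairs passed 0.05 by Pearson r and 2 of those also by Spearman rho. Leaving out Sfrp5 KO mouse 2 reduced the 3 to 1, and leaving out wild-type mouse 2 raised it to 5. Within a single genotype none of the 28 passed the adjusted exact permutation test. The sign was the same in both genotypes for 16 of 28.

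The metallothioneins rose and fell together. The mice highest in Mt1 included Sfrp5 KO mouse 2, with 10.76 for Mt1 and 10.78 for Mt2, and the lowest was Sfrp5 KO mouse 5, with 9.86 and 9.78. Over 15 mice r was 0.75 (permutation p = 0.00111, adjusted 0.0104) and rho 0.80 (permutation p = 0.00057, adjusted 0.00798). The relation had r = 0.82 within Sfrp5 KO and 0.60 within wild type, and 0.64 without Sfrp5 KO mice 2 and 5, which lay farthest from the Mt1 median. Without Sfrp5 KO mouse 2 alone the adjusted permutation p was 0.0863. Only 0.0853% of named genes reached this r with Mt1, and 0.1% reached it with Mt2.

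Zbtb16 ran opposite to Mt2 and gave the strongest of the 28 relations. Sfrp5 KO mouse 6 had the highest Zbtb16 (10.24) with the lowest Mt2 (9.69), and wild-type mouse 2 the lowest Zbtb16 (9.16) with the highest Mt2 (10.87). The pair had r = -0.83 over 15 mice (permutation p = 0.00011, adjusted 0.00308) and rho = -0.84 (permutation p = 0.00021, adjusted 0.00588). It was -0.81 within Sfrp5 KO and -0.87 within wild type, and stayed at -0.73 without those 2 mice. Both genes are textbook glucocorticoid targets, and among these mice their levels were opposed. With Mt1, Zbtb16 had r = -0.36 only.

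Fkbp5 followed Mt1, with a call that depended on Sfrp5 KO mouse 2. It had r = 0.76 over 15 mice (permutation p = 0.00091, adjusted 0.0104) and rho = 0.64 (permutation p = 0.0115, adjusted 0.0805). Within Sfrp5 KO r was 0.79 and within wild type 0.68. The r over 15 mice was reached by 1.96% of named genes with Fkbp5 and by 0.0702% with Mt1. Without Sfrp5 KO mouse 2 and wild-type mouse 4, the mice farthest from the Fkbp5 median and highest in epididymis markers, r was 0.60 with an adjusted permutation p of 0.174, and without Sfrp5 KO mouse 2 alone r was 0.66 (adjusted permutation p = 0.0863). Both genes also ran against the adipocyte marker mean, at r = -0.66 for Fkbp5 (rho -0.68) and -0.57 for Mt1 (rho -0.66), and at -0.72 and -0.79 without Sfrp5 KO mouse 2 and wild-type mouse 7, though neither passed adjustment over 72 relations (adjusted permutation p = 0.128 and 0.268). Mt2 had r = -0.49 (rho -0.68) with the adipocyte marker mean, which did not pass either (adjusted permutation p = 0.432). The part of the epididymis and adipocyte signals in the relations of Mt1 with Fkbp5 and with Mt2 was not tested.

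Other pairs fell short of the adjusted threshold. The receptor gene Nr3c1 had r = 0.65 with Zbtb16 (adjusted permutation p = 0.0665) and -0.62 with Mt2 (adjusted permutation p = 0.0822). Fkbp5 and Tsc22d3, both standard readouts of receptor activity, had r = -0.44 (permutation p = 0.0957, adjusted 0.298). Nr3c1 and Hsd11b1 had r = 0.39 (adjusted permutation p = 0.371). The r of Sgk1 with the other 7 genes lay between -0.24 and 0.26. Some pairs differed in size between genotypes, in ways that were not tested: Tsc22d3 with Mt1 had r = -0.87 within Sfrp5 KO and -0.01 within wild type, and Nr3c1 with Fkbp5 had -0.08 within Sfrp5 KO and -0.90 within wild type. Without Sfrp5 KO mouse 8 and wild-type mouse 2, the arrays highest in macrophage markers, Fkbp5 with Mt2 had r = 0.81 (adjusted permutation p = 0.0103), against 0.52 over all mice (0.194). Hsd11b1 with Zbtb16 had r = 0.71 without those arrays (adjusted permutation p = 0.0463), against 0.27 over all mice (0.597). Leaving out wild-type mouse 2, 4 or 5 put Nr3c1 with Zbtb16 past the threshold (r = 0.71, 0.69 and 0.75).

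**Figure D4:**
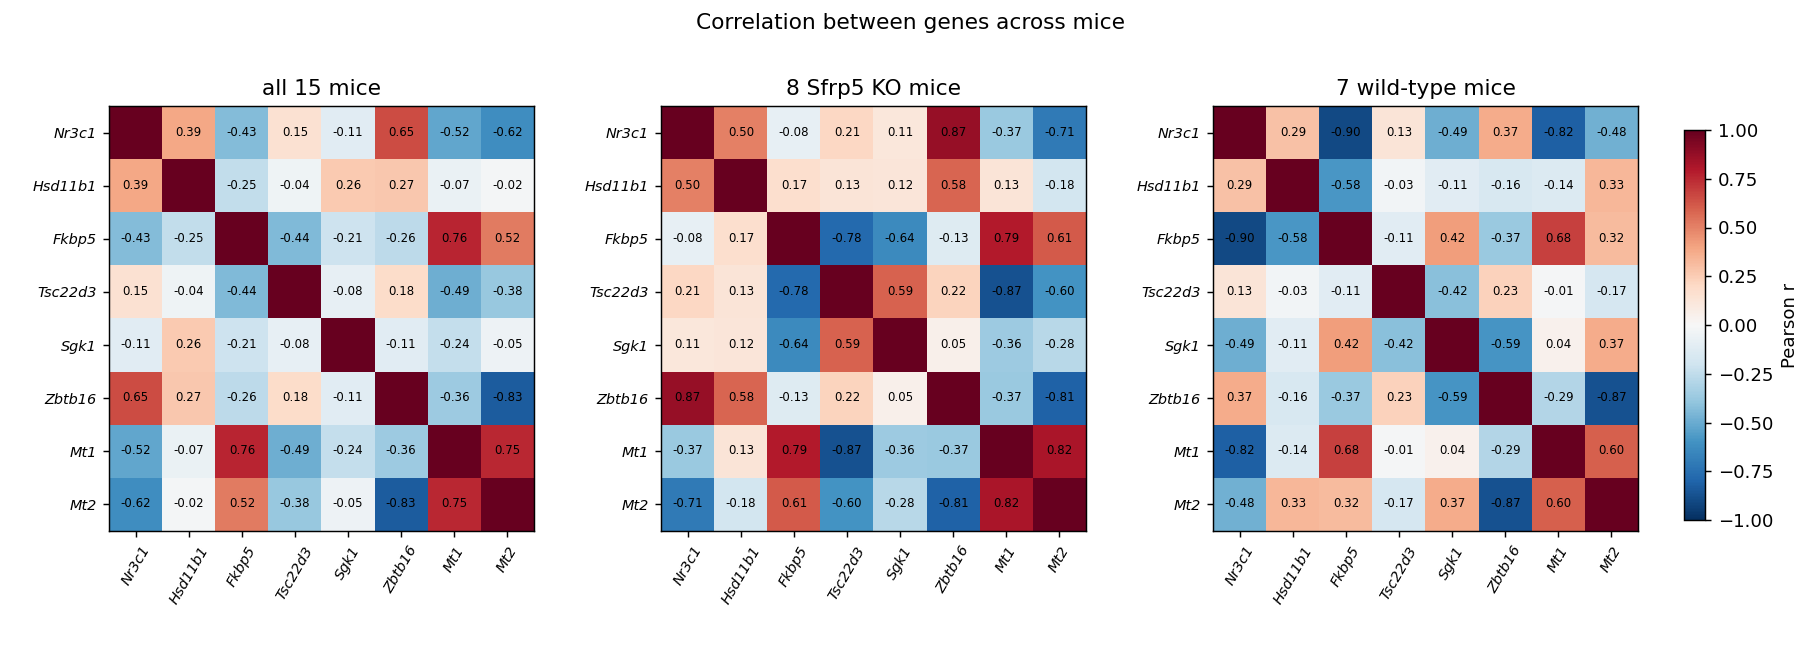
Pearson r between each pair of genes over all 15 mice (left), the 8 Sfrp5 KO mice (middle) and the 7 wild-type mice (right); red is positive, blue negative. Mt1 with Mt2 is positive (0.75, 0.82 and 0.60) and Zbtb16 with Mt2 negative (-0.83, -0.81 and -0.87) in all 3 panels.

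The levels were next set against the cell makeup of the samples, as the mean of each of 9 marker lists per mouse. Of the 72 relations of 8 genes with 9 lists, 2 passed 0.05 after adjustment over the 72. Tsc22d3 followed the 9 measured adipocyte markers with r = 0.88 (permutation p = 5e-05, adjusted 0.0036) and rho = 0.87 (adjusted permutation p = 0.00504). The relation was 0.89 within Sfrp5 KO and 0.86 within wild type, and 0.74 without Sfrp5 KO mouse 2 and wild-type mouse 7. The adipocyte mean ran from 11.65 to 11.95 in Sfrp5 KO and from 11.57 to 11.92 in wild type, lowest in wild-type mouse 7, which was also lowest in Tsc22d3. Whether adipocyte content sets Tsc22d3 was not tested.

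Fkbp5 ran against the mean of 8 endothelial markers, with r = -0.80 (permutation p = 0.00077, adjusted 0.0277) but rho = -0.57 (adjusted permutation p = 0.357). Without Sfrp5 KO mouse 2 and wild-type mouse 4 r was -0.49, and the call was also lost without Sfrp5 KO mouse 2, Sfrp5 KO mouse 4 or wild-type mouse 4 alone (adjusted permutation p = 0.134, 0.0926 and 0.148). With the epididymis markers Fkbp5 had r = 0.68 (permutation p = 0.00651, adjusted 0.128) over all 15 mice and -0.13 without those 2. Its r with the mesothelial markers was 0.58 (permutation p = 0.023, adjusted 0.268) and its rho 0.61. That r was 0.62 within Sfrp5 KO, 0.56 within wild type and 0.64 without wild-type mice 2 and 6.

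**Figure D5:**
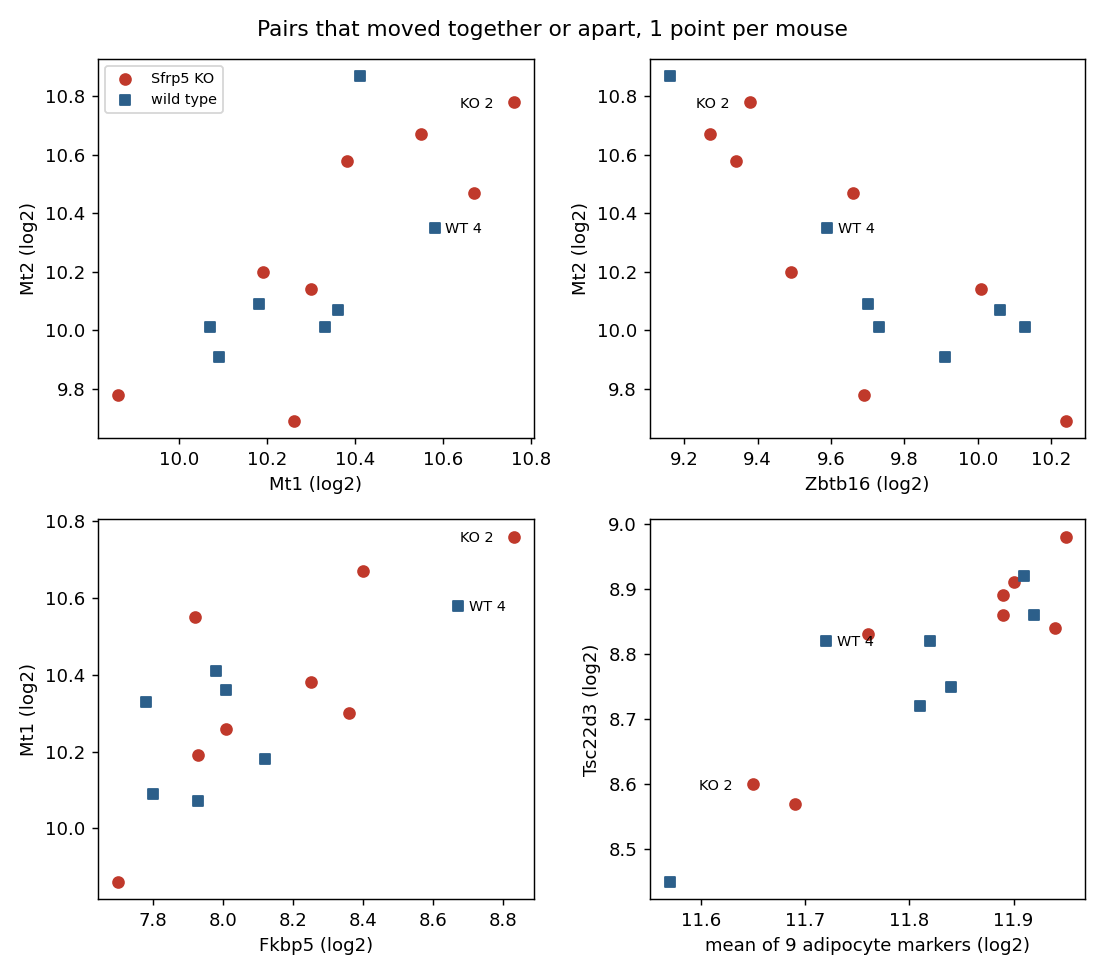
Log2 levels per mouse of Mt2 against Mt1, Mt2 against Zbtb16, Mt1 against Fkbp5, and Tsc22d3 against the mean of 9 adipocyte markers (8 Sfrp5 KO mice as red circles, 7 wild-type mice as blue squares). Sfrp5 KO mouse 2 and wild-type mouse 4 are labelled and head the Fkbp5 axis (8.83 and 8.67); over all mice r is 0.75, -0.83, 0.76 and 0.88 in this order of panels.

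For each gene, the 3 named genes with the highest r over the 15 mice were listed, as a description. They were Usp38 (0.94), Ptpn4 (0.91) and Tbc1d31 (0.91) for Nr3c1, and Rttn (0.82), Nxt1 (0.81) and Ube4a (0.80) for Hsd11b1. Fkbp5 was matched by Deup1 (0.94), Morn3 (0.92) and Hook1 (0.92), which had r of 0.94, 0.90 and 0.84 without Sfrp5 KO mouse 2 and wild-type mouse 4. Tsc22d3 was matched by Tmem242 (0.92), Myl6 (0.90) and Mtln (0.90), and Sgk1 by Pla2r1 (0.87), Ly6g (0.86) and Nubp1 (0.80). Zbtb16 was matched by Dock11 (0.91), Eci3 (0.90) and Hnmt (0.89). The partners of Mt1 were Syce2 (0.85), Tmbim4 (0.82) and Apobec3 (0.82), and those of Mt2 were Tpd52 (0.88), Tekt1 (0.87) and Tmem176a (0.85). Each set of 3 was picked from 19938 genes for its r, so no test was made.

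In the wider pathway, 0 genes of any of the 6 lists examined passed the adjusted test (limma). The list of other glucocorticoid-raised genes was drawn for mammalian cells at large, and the direction of each gene in fat was not checked. Of its 26 measured genes, 15 had a higher and 11 a lower mean in Sfrp5 KO, with a median difference of 0.01. At an unadjusted p under 0.05, 3 of the 26 (11.5%) were higher and none lower, beside 2.3% higher and 4.39% lower of all named genes. They were Rhob, a small GTPase (0.18, SE 0.07, limma adjusted p = 0.354), Zfp36, which destabilises inflammatory transcripts (0.19, SE 0.07, limma adjusted p = 0.354), and Bcl6, a transcriptional repressor (0.44, SE 0.16, limma adjusted p = 0.361). Every one of the 8 Sfrp5 KO mice exceeded the wild-type mean in Rhob and in Zfp36, and 7 did in Bcl6. These genes were picked by their p, so the counts of mice add no further test.

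Among 13 measured receptor chaperones and coregulators, 8 were higher and 5 lower, with a median of 0.03. At an unadjusted p under 0.05 there was 1 in each direction, beside 2.3% higher and 4.39% lower of all named genes. The lowest p values were those of the chaperone Hsp90aa1 (0.13, limma adjusted p = 0.396) and the coactivator Ncoa2 (-0.11, limma adjusted p = 0.452). Of 8 measured enzymes, carriers and transporters that set local hormone, 7 had a lower mean in Sfrp5 KO, with a median of -0.12, though none had an unadjusted p under 0.05. Of all 19938 named genes, 11002 had a lower mean. The steroid exporters Abcb1a and Abcb1b were at -0.16 and -0.22 (limma adjusted p = 0.509 and 0.572). Serpina6, the corticosteroid-binding globulin, was at -0.20 (limma adjusted p = 0.584). With Sfrp5 KO mice 7 and 8 alone, Abcb1a, Abcb1b and Serpina6 were at -0.34, -0.22 and -0.15. Without those mice they were at -0.10, -0.22 and -0.22, in the same order. Serpina6 was dim, with means of 4.46 in Sfrp5 KO and 4.66 in wild type, and fell below the level filter tried as an alternative. Akr1d1, Cyp11a1, Cyp11b1 and Hsd11b2 of the same list averaged 4.67, 5.53, 6.38 and 6.91 in Sfrp5 KO. These means lay below the array medians of 6.99 to 7.07. Of these genes only Cyp11a1 had a higher mean in Sfrp5 KO (0.12). The count of lower means in this list therefore rests in part on dim probe sets. Endothelial markers, 7 of 8 with a lower mean in Sfrp5 KO, moved the same way as this list, and their part in it was not tested. Hsd11b1 itself was not in this list.

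Zinc handling genes beside the metallothioneins were divided, 6 higher and 7 lower of 13, with Slc39a1, a zinc importer, at 0.13 (limma adjusted p = 0.429). Immediate early genes, which respond to stress and handling, were 7 higher and 5 lower of 12. The lowest p was that of Jun at 0.15 (limma adjusted p = 0.49). Egr2 had a larger difference of 0.54 (limma adjusted p = 0.584), which ran from 0.33 to 1.03 over the alternative fits. Each of these lists, and that of the clock genes, had 1 gene at an unadjusted p under 0.05, in each case higher in Sfrp5 KO, where 2.3% of named genes were. Clock genes, whose rhythm glucocorticoids help to set, were 8 higher and 5 lower of 13. The lowest p was that of the repressor Bhlhe41 at 0.57 (SE 0.17, limma adjusted p = 0.217). All 8 Sfrp5 KO mice lay above its wild-type mean, a count that adds no test to a gene picked by its p. Across mice, the share of a list at r of 0.5 or more was counted for each of the 48 combinations of 8 genes and 6 lists. With the other glucocorticoid-raised genes, the list nearest to the question, the shares ran from 0 of 26 for Sgk1 to 4 of 26 for Hsd11b1 and Zbtb16 (15.4%, against 4.86% and 7.22% of named genes). Fkbp5 reached r of 0.5 with 2 of those 26 (7.69%, against 9.18%). With Sfrp5 KO mouse 2 and wild-type mouse 4 left out, Fkbp5 reached it with 4 of 26 (15.4%, against 6.37%). Hsd11b1 then had 2 of 26 (7.69%, against 5.55%), and Zbtb16 again 4 of 26 (15.4%, against 7.95%). Among the higher shares, Fkbp5 had r of 0.5 or more with 5 of the 13 clock genes, or 38.5%, against 9.18% of all named genes. Without Sfrp5 KO mouse 2 and wild-type mouse 4 the share was 30.8% against 6.37%. Tsc22d3 had none of the 13 at 0.5 or more and 3 at -0.5 or less (23.1%, against 6.85% of named genes). Mt2 had r of 0.5 or more with 2 of 12 immediate early genes (16.7%, against 2.75% of named genes), and with 4 of 12 (33.3%, against 4.65%) without those mice. Nr3c1 reached it with 4 of 13 receptor chaperones and coregulators (30.8%, against 10.5%), and with 30.8% (against 10.3%) without those mice. Hsd11b1 and Zbtb16 each reached it with 2 of 8 enzymes, carriers and transporters that set local hormone (25.0%, against 4.86% and 7.22%). These shares are descriptions, since the genes of a list move together.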

How the data were processed

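Total RNA from 1 fat depot per mouse was amplified from 10 ng and biotin labelled, per the labels' protocols. The deposited log2 values of 35557 probe sets on 15 arrays were made by the authors with RMA, per the submitters' processing notes, which list affy 1.18, limma and, with version 1.1.2800.19935, Affymetrix Expression Console, all without roles. RMA makes array distributions alike and so removes any shift shared by most genes. No source used here says whether all arrays were normalised together. Array medians were 6.99 to 7.07. The number of arrays limits the precision.

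In the platform annotation 21789 probe sets had 1 symbol, 1621 had several and 12147 had none. Of the 21789, 21698 matched the RefSeq table of GRCm38.p6, and the brightest probe set stood for a gene. Genotype was tested with limma 3.58.1 in R 4.3.3 (lmFit, eBayes, two-sided, no covariate), with Benjamini-Hochberg adjustment across every probe set, a threshold of 0.05 and no filter. The code was tested on simulated data. Correlations were tested two-sided with 100000 permutations (smallest possible p 1e-05), or exactly within a genotype. Named genes were Sfrp5, the 8 genes, the 3 lowest p of each wider list and the 3 most alike genes of each, leaving out other members and predicted genes. Members, lists and tests were chosen with earlier results of these data known. Same-numbered mice did not deviate together (r -0.095 to 0.206), so numbers were not treated as pairs.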

Additional observations from a re-analysis of the deposited data

Results flagged for a closer look

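A sample far from its group was found in 2 of the 18 groups examined (Sfrp5 and the 8 genes in each genotype), where chance gives about 1 in 20. Fkbp5 in wild-type mouse 4 was 8.67, against 7.78 to 8.12 in the other 6 wild-type mice; the gap was 0.622 of the group's range, above the critical value of 0.568. That array was also the wild-type array highest in epididymis markers (7.99). Tsc22d3 in wild-type mouse 7 was 8.45, against 8.72 to 8.92 in the other 6, with a gap of 0.581 of the range against the same critical value. That array was also lowest in the adipocyte marker mean.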

How the results depend on the processing

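No member and no gene of a wider list was called under any of the 25 alternatives, and the sign of 6 members held outside the leave-one-out fits. The 12 called probe sets became 6 after quantile normalization, 7 after centring on array medians, 26 when dim probe sets were dropped, 48 under a trended, robust prior, 25 under array weights, and 2 without Sfrp5 KO mice 7 and 8. They became 0 with the replicate number as a block (3098 at an unadjusted p under 0.05), without the arrays highest in epididymis markers (2963), without those highest in macrophage markers (3034), and with Sfrp5 KO mice 7 and 8 alone as knockouts, whose description numbers fall among those of wild type (3392), all by limma. Leaving out 1 mouse gave 0 to 133. The Sfrp5 difference was -1.28 with the replicate block (adjusted p = 0.3), -1.17 and -1.21 without those marker-high arrays (adjusted p = 0.119 and 0.0627), -0.93 with Sfrp5 KO mice 7 and 8 alone (adjusted p = 0.316), and -1.29 to -1.13 leaving out 1 mouse (limma adjusted p 0.00413 to 0.067).

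Differences that crossed 0 were those of Nr3c1 (0.00 with the replicate block, 0.04 without Sfrp5 KO mice 7 and 8, -0.07 to 0.00 leaving out 1 mouse), Mt2 (-0.01 without Sfrp5 KO mice 7 and 8) and Tsc22d3 (0.00 to 0.08 leaving out 1 mouse). Over all alternatives the difference ranged from -0.22 to 0.04 for Nr3c1, -0.24 to -0.14 for Hsd11b1, 0.04 to 0.24 for Fkbp5, -0.34 to -0.20 for Sgk1, -0.45 to -0.01 for Zbtb16, 0.03 to 0.18 for Mt1 and -0.01 to 0.44 for Mt2.

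The 3 called pairs became 1 without the epididymis-high arrays, 5 without the macrophage-high arrays, and 1 to 5 leaving out 1 mouse. Zbtb16 with Mt2 passed under all 20 alternatives; Mt1 with Mt2 missed without Sfrp5 KO mouse 2 (adjusted permutation p = 0.0863) and without the epididymis-high arrays (0.0988). The 2 called marker relations became 1 with genotype means removed or without the epididymis-high arrays, and 1 to 4 leaving out 1 mouse; Tsc22d3 with adipocyte markers passed under all 20. Fkbp5 with endothelial markers missed under 5 of 20. Without wild-type mouse 7, Tsc22d3 with Mt1 had r = -0.80 (adjusted permutation p = 0.00714).

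Weak correlations changed sign. With genotype means removed r was 0.05 for Hsd11b1 with Tsc22d3, -0.02 for Hsd11b1 with Sgk1, 0.01 for Hsd11b1 with Mt1, 0.06 for Hsd11b1 with Mt2, 0.03 for Tsc22d3 with Sgk1 and 0.04 for Sgk1 with Mt2. Quantile normalization gave -0.05 for Nr3c1 with Tsc22d3; median centring gave 0.00 for Nr3c1 with Sgk1, 0.14 for Hsd11b1 with Tsc22d3 and 0.04 for Tsc22d3 with Sgk1. Without the epididymis-high arrays r was 0.13 for Hsd11b1 with Mt1, 0.08 for Hsd11b1 with Mt2 and 0.09 for Sgk1 with Mt2, and without the macrophage-high arrays 0.03 for Hsd11b1 with Tsc22d3 and 0.08 for Sgk1 with Zbtb16. Leaving out 1 mouse spanned 0 for Nr3c1 with Sgk1 (-0.22 to 0.00), Hsd11b1 with Tsc22d3 (-0.15 to 0.09), with Mt1 (-0.30 to 0.02) and with Mt2 (-0.34 to 0.08), Fkbp5 with Sgk1 (-0.37 to 0.02), Tsc22d3 with Sgk1 (-0.28 to 0.36), and Sgk1 with Zbtb16 (-0.23 to 0.05) and with Mt2 (-0.26 to 0.12). The cause was not tested. Averaging all probe sets of a gene was not run, since each gene had 1. The marker and wider-list alternatives were chosen after seeing the data.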
